A study of Mus musculus with 8 samples.

Results

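The motor genes described here encode the kinesins, the kinesin light chains, the subunits of cytoplasmic dynein and of its cofactor dynactin, and the myosin heavy chains, the proteins that move cargo along microtubules or act on actin filaments. They were chosen by symbol: every gene beginning with Kif, Klc, Dync1, Dync2, Dctn, Myo or Myh and a digit (or Kifc), and named in the 3' UTR, CDS, 5' UTR or intron column of a deposited table of Argonaute-bound read clusters. This gave 60 of the 9962 genes named in those columns, with 502 of the 70142 clusters in the table and 17926 of its 1834586 reads. No motor cluster named another gene on its own strand. One of the 60, Kif1bp, encodes a protein that binds kinesins and is no motor itself. It carries the Kif1 prefix and is counted with the kinesin-3 genes.

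The study used FLAG-Ago2 HITS-CLIP, in which RNA is crosslinked by ultraviolet light to a tagged Argonaute 2 protein, immunoprecipitated with an antibody to the FLAG tag and sequenced. Mice with Camk2a-cre and the Rosa-Stopfl/fl-Flag-Ago2 allele gave 5 libraries, and express the tagged protein where Cre is made under the Camk2a promoter, which is active in excitatory forebrain neurons. Controls with the Rosa-Stopfl/fl-Flag-Ago2 allele and no Cre gave 3 libraries, and carry the tagged gene behind its stop cassette. All mice were 8 to 14 weeks old, and the tissue was forebrain. The library titles carry the numbers 1 to 3 in each group, some Flag-Ago2 numbers with a and b. Whether libraries that share a number came from the same experiment is not stated in the titles. The deposited table holds 1 pooled read count per cluster and no column for a single library, so no value below has a replicate check or a control value. A count states how many reads of the immunoprecipitated RNA fell in a cluster. How much of it was background and not Argonaute-bound RNA could not be checked without control values. Transcript abundance was not measured, and more bound RNA per transcript, more transcripts per cell and more cells of a type cannot be told apart.

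Kinesins mostly carry vesicles, mitochondria and other cargo toward the plus ends of microtubules, which point to the axon tip, and cytoplasmic dynein with dynactin carries cargo back toward the cell body. Myosins use actin, and move cargo over short distances in spines and presynaptic endings or contract the cell cortex. Argonaute 2 is loaded with a microRNA, whose bases 2 to 8, the seed, pair with complementary sites in target transcripts, most often in the 3' UTR.

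The 3' UTR sites below are shown because they join a cluster to a microRNA family by sequence. Those of Kif1b, Kif21a, Myo9a and Myo5a come from 3' UTR clusters of 208, 207, 80 and 71 reads. Clusters of 81 reads in Kifc2 and 72 in Myo5a also held matches and are not shown. The sites shown for Kif21a, Myo9a and Myo5a lie 39, 76.5 and 50.5 bases from the centre of their cluster. Those of Myo6, Kif21b and Kif16b, in clusters of 44, 40 and 24 reads, were chosen as 8mer sites after their values were seen. Mature microRNA sequences are from RefSeq (GRCm38.p6), 5′ to 3′, and capitals mark the seed, bases 2 to 8.
miR-128-3p: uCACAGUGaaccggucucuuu
miR-125b-5p: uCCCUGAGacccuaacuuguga
miR-132-3p: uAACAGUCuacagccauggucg
miR-138-5p: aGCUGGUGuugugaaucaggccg
miR-218-5p: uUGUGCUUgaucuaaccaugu
miR-7a-5p: uGGAAGACuagugauuuuguugu

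The matching sites were read on the strand of the transcript from GENCODE M21 transcripts (mm10), and capitals mark the 6 bases that pair with microRNA bases 2 to 7. Kif1b, a kinesin that carries mitochondria and synaptic vesicle precursors, had matches to miR-125 and miR-128 close together in its deepest cluster, at chr4:149179915-149180147 on the minus strand. Kif21a, a kinesin that acts on microtubule growth in neurons, had a match to miR-132 (and to miR-212, which shares its seed) in its deepest cluster, at chr15:90933443-90933638 on the minus strand. Myo9a, an unconventional myosin, had one in a cluster of 80 reads. Myo5a, the myosin that draws endoplasmic reticulum into dendritic spines, had a match to miR-138 in a cluster of 71 reads. Sites of Myo6, Kif21b and Kif16b add matches to miR-218 and miR-7. The clusters of Kif21a, Myo9a, Myo5a, Kif21b and Kif16b also held matches to other families. Among them were miR-128 in Kif21a, and miR-218 and miR-7 in Myo5a.
Kif1b, miR-125: atgtgtttccatTCAGGGaaagcactgtgg
Kif1b, miR-128: ttcagggaaagcACTGTGggaagctcagaa
Kif21a, miR-132: acacattggtagACTGTTatcatttgtggt
Myo9a, miR-132: tagggtatgaagACTGTTctgtgtctcaat
Myo5a, miR-138: cttgaaagacacACCAGCacagcagttctt
Myo6, miR-218: ggaacagtgataAGCACAagggcagaggag
Kif21b, miR-218: cttcttgtcggaAGCACAaactggttgtaa
Kif16b, miR-7: tcatgagaagagTCTTCCatgcctgacaaa

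The Kif1b windows overlap, and the miR-125 match starts 744 bases and the miR-128 match 755 bases past the stop codon, at chr4:149180019-149180024 and chr4:149180008-149180013. The miR-128 match of Kif1b also pairs with base 8 of the microRNA (a 7mer-m8 site), and its miR-125 match is followed by an A (a 7mer-A1 site). The sites shown for Kif21a, Myo5a, Myo6, Kif21b and Kif16b have both features (8mer sites). The Kif21a site lies at chr15:90933577-90933582 on the minus strand and that of Myo5a at chr9:75220730-75220735 on the plus strand. A match is a description of the letters under a cluster, and which microRNA was bound there was not measured.

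Clusters were found in most families of transport motors, and in few of the listed motors of cell division or striated muscle. GENCODE M21 lists 99 protein-coding genes that fit the same symbol pattern, and 60 of them, 60.6%, had a cluster on their own strand, where 43.2% of all 21924 protein-coding genes did. An exonic cluster was present in 49 of the 99, or 49.5%, against 35.7% of all protein-coding genes. A 3' UTR cluster was present in 27 of the 99, or 27.3%, against 21.5% of all protein-coding genes. These shares take no account of gene length. Among genes with an exonic cluster, the median merged exon length was 7.28 kb in motor genes and 5.37 kb in all genes. The table starts at 10 reads per cluster, so a gene without a cluster may still have been bound below that depth. All 3 kinesin-1 genes, all 4 kinesin-2 genes, all 5 cytoplasmic dynein 1 genes and all 6 dynactin genes had a cluster in an exon or intron. So did 7 of the 8 kinesin-3 genes and 18 of the 25 unconventional myosins. Counting exonic clusters only, these became 4 of the 6 dynactin genes and 13 of the 25 unconventional myosins, the others being unchanged. By either count, 3 of 5 kinesin-4, 2 of 4 light chain, 2 of 4 kinesin-14, 1 of 4 kinesin-13 and 1 of 2 dynein 2 genes had a cluster. Of 12 kinesins used in cell division, only Kif4 had an exonic cluster, of 16 reads, and Kif11 and Kif23 had 1 intron cluster each. None of 8 sarcomeric myosin heavy chains had any exonic cluster. These 2 lists were drawn up after the table was seen.

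Depth per cluster was close to that of the whole table. Motor clusters held 10 to 4720 reads with a median of 20.5, against a median of 18 over all clusters, and their median width was 133 bases, against 128. Exons of the motor genes held 8403 reads in 275 clusters and introns 9523 reads in 227. Only 4 exonic motor clusters reached 100 reads, 1.45% of them against 2.42% of all exonic clusters. The 10 motor genes with the most exonic reads, led by Kif1b, Dync1h1 and Myo5a, held 54.5% of the exonic motor reads, and 25 of the 49 rested on 3 or fewer exonic clusters.

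Since motor genes are long, levels were also set per kilobase of merged exon. Over genes with an exonic cluster, the median was 15.5 exonic reads per kb in the 49 motor genes and 9.80 in all 7837 genes. Without the deepest exonic cluster of each gene it was 7.97 in motor genes and 2.94 in all genes, where a gene with 1 exonic cluster counts as 0. The median merged exon length was 7.28 kb in motor genes and 5.37 kb in all genes. The level of 30 of the 49 lay above the all-gene median. With the exact 95% Poisson interval of its read count, which covers counting error only, 27 genes lay wholly above that median, 16 wholly below and 6 across it. The 10 highest levels per kb of merged exon all belonged to kinesins or their light chains, in the order Kif5c, Kif5a, Kif21a, Kif1a, Kifc2, Kif3b, Kif5b, Klc1, Klc2 and Kif1b. This order depends on the length used. Kif1b has 17.6 kb of merged exon and a longest transcript of 10.2 kb, and Dctn1 has 6.51 and 4.32 kb. Per kb of longest transcript, Kif1b would come first and Dctn1 would stand above Kif3b, among the 10 highest. All 49 levels were also ordered per kb of merged exon. There, the exact 95% interval of the ratio between neighbours, given their 2 read counts, held 1 in 45 of 48 pairs. The exceptions were Kif5c over Kif5a, Dync1i1 over Myh14 and Myo6 over Kif13b.

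**Figure D1:**
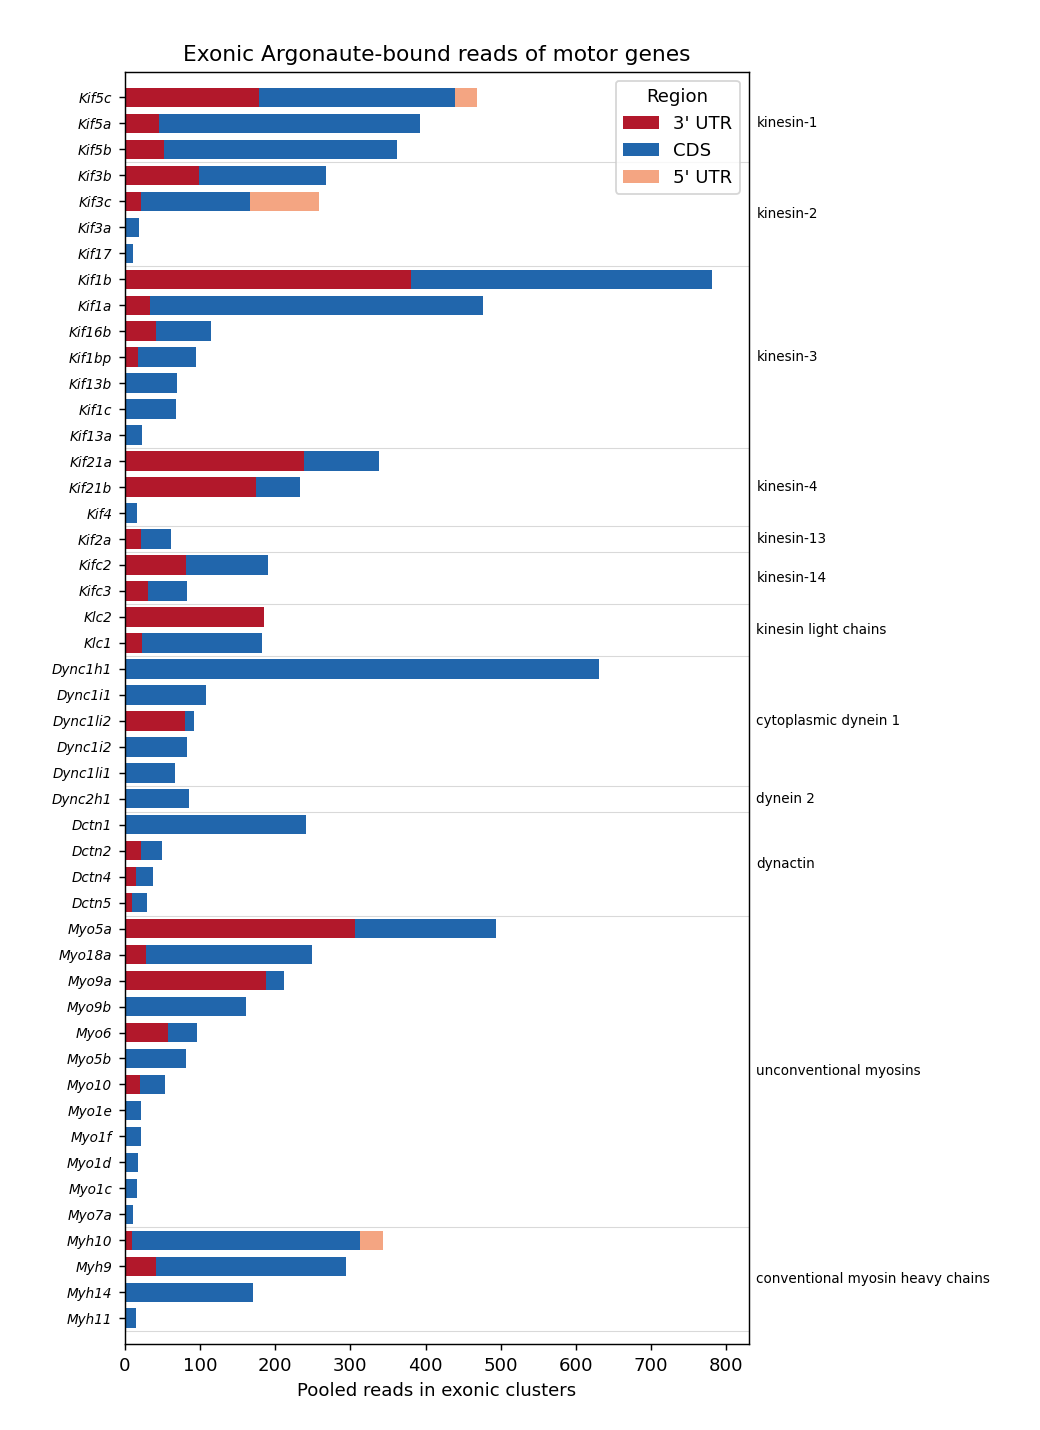
Pooled reads in exonic clusters (horizontal axis, reads) of 48 of the 49 motor genes that have one, grouped by motor class and split by region as in the legend. Each bar is 1 pooled value without error. Kif1b reaches 781 reads, nearly evenly divided between 3' UTR and CDS, and the 631 reads of Dync1h1 are all in CDS.

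**Figure D2:**
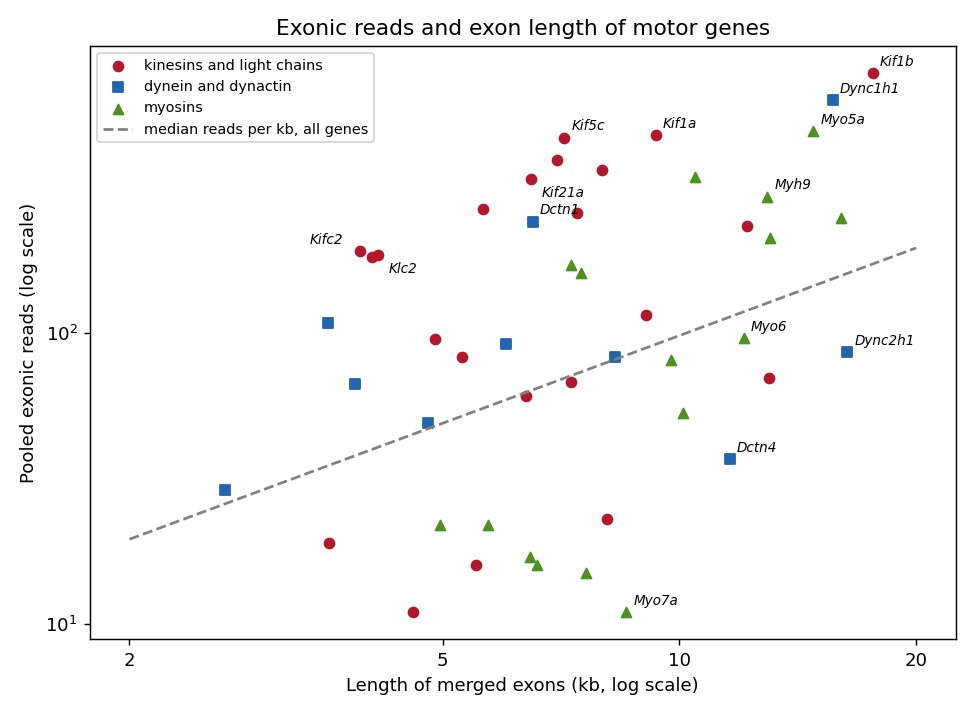
Pooled exonic reads against the length of the merged exons (kb) of the same 48 genes, both on log scales, 1 point per gene with selected genes named. The dashed line marks the median of 9.80 reads per kb over all genes with an exonic cluster; 30 of them lie above it, and Dync2h1, Dctn4 and Myo7a are among those below.

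Kinesin-1 is the conventional kinesin, whose heavy chains Kif5a, Kif5b and Kif5c carry mitochondria and vesicles along axons, and all of them stood high per length. Kif5c had 468 exonic reads in 14 clusters, or 65.5 reads per kb (interval 59.7 to 71.7). Kif5a had 392 exonic reads in 11 clusters, or 56.1 reads per kb (50.7 to 61.9). Kif5b had 362 exonic reads in 12 clusters, or 45.4 reads per kb (40.8 to 50.3). Per kb of merged exon and by counting error alone, the ratio was 1.17 for Kif5c over Kif5a (exact 95% interval 1.02 to 1.34). It was 1.24 for Kif5a over Kif5b (1.07 to 1.43). Kif5c, Kif5a and Kif5b have 7.142, 6.99 and 7.981 kb of merged exon, and longest transcripts of 6.856, 6.295 and 6.032 kb. Per kb of longest transcript both ratios would be nearer 1. The paralogs differed in where the reads lay. Kif5c had 8 of its 14 exonic clusters in the 3' UTR, with 10 to 43 reads each, besides 5 in CDS and 1 of 29 reads in the 5' UTR. Kif5b had 11 of its 12 in CDS and 1 cluster of 52 reads in the 3' UTR, and Kif5a had 8 in CDS and 3 in the 3' UTR. The 3 genes are similar in sequence, and how the authors treated reads that map to more than 1 place is not stated in the labels or file headers.

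The kinesin light chains, which join kinesin-1 to its cargo, were represented by Klc1 and Klc2. Klc1 had 183 exonic reads, or 45.0 reads per kb, of which 104 lay in 1 CDS cluster in exon 2 of 16. Klc2 had 185 exonic reads, or 44.8 reads per kb, in 7 clusters that the table places in the 3' UTR. Of these, 5 clusters of 46, 43, 33, 14 and 14 reads also name CDS in the table and lie outside the 3' UTR of every protein-coding Klc2 transcript in GENCODE, so the region of those clusters depends on the transcripts used. The other two held 24 and 11 reads. Klc3 and Klc4 had no cluster on their own strand.

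Kinesin-2 genes were uneven. Kif3b, a heavy chain of the heterotrimeric kinesin-2 that also builds cilia, had 267 exonic reads in 9 clusters, or 47.4 reads per kb. Its partner Kif3a had 19 reads in 1 CDS cluster, or 5.30 reads per kb. Kif3c, which also pairs with Kif3a, had 258 reads in 4 clusters, or 34.8 reads per kb, and its deepest cluster, of 92 reads, was in the 5' UTR at chr12:3365740-3365926. A CDS cluster of 89 reads lay in the same exon, exon 1 of 8. Kif17, a dendritic kinesin linked to transport of NMDA receptors, had 11 reads in 1 cluster.

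Kinesin-3 genes, which include the carriers of synaptic vesicle precursors, held the largest share of exonic motor reads of any class, 1629 reads or 19.4%. Kif1b had 781 exonic reads in 19 clusters, or 44.4 reads per kb (41.3 to 47.6), with 12 clusters in CDS and 7 in the 3' UTR. Kif1a had 477 exonic reads in 17 clusters, or 51.1 reads per kb (46.6 to 55.9), with 15 clusters in CDS and 2 in the 3' UTR. Both genes transport synaptic vesicle precursors. The ratio of Kif1a over Kif1b per kb of merged exon was 1.15 (exact 95% interval 1.03 to 1.29, counting error only). Its direction depends on the length used. Merged exons span 9.33 kb in Kif1a and 17.6 kb in Kif1b, but the longest transcripts 8.21 and 10.2 kb. Per kb of longest transcript, Kif1b would be the higher. The 3' UTR held 381 of the 781 reads of Kif1b and 34 of the 477 reads of Kif1a. Kif16b, an endosomal kinesin, had 115 exonic reads (12.7 per kb) and Kif1bp had 95 (19.4 per kb). The remaining members, Kif13b, Kif1c and Kif13a, had 70, 68 and 23 exonic reads, all in CDS.

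The kinesin-4 genes had 70.4% of their exonic reads in the 3' UTR, from Kif21a and Kif21b, which act on microtubule growth in axons and dendrites. Kif21a had 338 exonic reads in 8 clusters, or 52.2 reads per kb (46.8 to 58.1), and its 2 3' UTR clusters held 207 and 31 of them. Kif21b had 233 exonic reads in 11 clusters, or 19.1 reads per kb (16.7 to 21.7), spread over 8 3' UTR clusters of 10 to 40 reads. Kif2a, a kinesin-13 that depolymerises microtubules, had 61 exonic reads in 2 clusters. The minus-end-directed kinesin-14 genes Kifc2 and Kifc3 had 191 exonic reads (48.6 per kb) and 83 (15.7 per kb). Of the 15 remaining kinesins, Kif26b, Kif9, Kif11 and Kif23 had only intron clusters, 7 in all with 119 reads.

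Exonic reads of dynein lay mostly in coding sequence. The cytoplasmic dynein 1 genes had 901 reads in CDS and 80 in the 3' UTR, besides 649 in introns. Dync1h1, the heavy chain that holds the motor domain, had 631 exonic reads or 40.3 reads per kb (37.2 to 43.6), in 24 CDS clusters in 24 different exons of 77. They held 10 to 80 reads with a median of 18, so no single site carried the gene. Its annotated 3' UTR is 0.254 kb long and had no cluster. The intermediate chains, which bind dynactin, had 108 exonic reads in Dync1i1 (30.2 per kb) and 83 in Dync1i2 (10.0 per kb), all in CDS. The light intermediate chains bind cargo adaptors, and Dync1li2 had 80 of its 92 exonic reads in 4 3' UTR clusters, while Dync1li1 had 67 exonic reads, all in CDS. Over the cytoplasmic dynein 1 genes, 8.15% of the exonic reads lay in the 3' UTR. Dync2h1, the heavy chain of the dynein of cilia, had 86 exonic reads in 3 CDS clusters, or 5.26 reads per kb.

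Exonic reads of dynactin also lay mostly in CDS, with 13.2% of them in the 3' UTR, and its introns held 205 reads. Dctn1, its largest subunit, which binds dynein and microtubules, had 241 exonic reads in 8 CDS clusters in 8 of 31 exons, or 37.0 reads per kb (32.5 to 42.0). The clusters held 14 to 51 reads, and the annotated 3' UTR of 0.306 kb had none. Dctn2, the subunit known as dynamitin, had 49 exonic reads, and Dctn4 and Dctn5, of the pointed end of dynactin, had 37 and 29. Dctn3 and Dctn6 had 1 intron cluster each.

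Unconventional myosins held 1461 exonic reads, 17.4% of the motor total, with a median of 5.24 reads per kb over the 13 genes with an exonic cluster. Myo5a was the highest of them per length, with 494 exonic reads in 17 clusters, or 33.4 reads per kb (30.5 to 36.4). Its 6 3' UTR clusters held 72, 71, 60, 36, 35 and 32 reads, and all were centred between 2688 and 4314 bases past the stop codon in a 3' UTR of 5.70 kb (5.695). Its 11 CDS clusters were shallower, with 10 to 37 reads. Myo9a, at 16.3 reads per kb, had 188 exonic reads in 5 3' UTR clusters and 24 in 2 CDS clusters. Myo18a had 249 exonic reads, or 15.5 reads per kb, and 221 of them were in CDS. Myo9b had 161 exonic reads, of which 126 lay in 1 cluster in exon 7 of 40. Myo6, which moves toward the minus ends of actin filaments, had 96 exonic reads, or 7.95 reads per kb. Myo1c, Myo1d, Myo1e and Myo1f, membrane-linked myosins, had 16 to 22 exonic reads each.

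The conventional myosin heavy chains found here were those of nonmuscle myosin II, which contracts actin at the cell cortex and in spines, and that of smooth muscle. Myh10 had 343 exonic reads in 11 clusters, or 32.8 reads per kb (29.4 to 36.5). Myh9 had 294 in 7 clusters, or 22.7 reads per kb (20.2 to 25.5), and Myh14 had 171 in 5 clusters, or 23.5 reads per kb (20.1 to 27.3). Per kb of merged exon the ratio was 1.44 for Myh10 over Myh9 (exact 95% interval 1.23 to 1.69, counting error only). It was 1.39 for Myh10 over Myh14 (1.16 to 1.69) and 1.03 for Myh14 over Myh9 (0.851 to 1.25). These ratios depend on the length used. Myh10, Myh9 and Myh14 have 10.5, 12.9 and 7.27 kb of merged exon, and longest transcripts of 7.79, 7.43 and 6.50 kb. Per kb of longest transcript, Myh9 would lie nearer to Myh10, and Myh14 below Myh9. Myh11, the smooth muscle heavy chain, had 15 reads in 1 CDS cluster. In this class 6.32% of the exonic reads were in the 3' UTR.

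Each cluster counts in 1 region here, with CDS taking precedence over intron. So counted, motor clusters lay in coding sequence more often, and in introns less often, than clusters of genes at large. CDS held 196 of the 502 motor clusters, 39.0% (95% Wilson interval 34.9 to 43.4), against 23.2% (22.9 to 23.6) of the 55842 clusters with a gene on their strand. Introns held 227, or 45.2% (40.9 to 49.6), against 58.6% (58.2 to 59.0). The 3' UTR held 76, or 15.1% (12.3 to 18.5), against 16.6% (16.3 to 16.9), and these intervals overlapped. The 5' UTR held 3, in Kif3c, Kif5c and Myh10, or 0.598% (0.203 to 1.74), against 1.60%. Clusters of 1 gene share that gene's level, so the intervals cover counting error only.

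**Figure D3:**
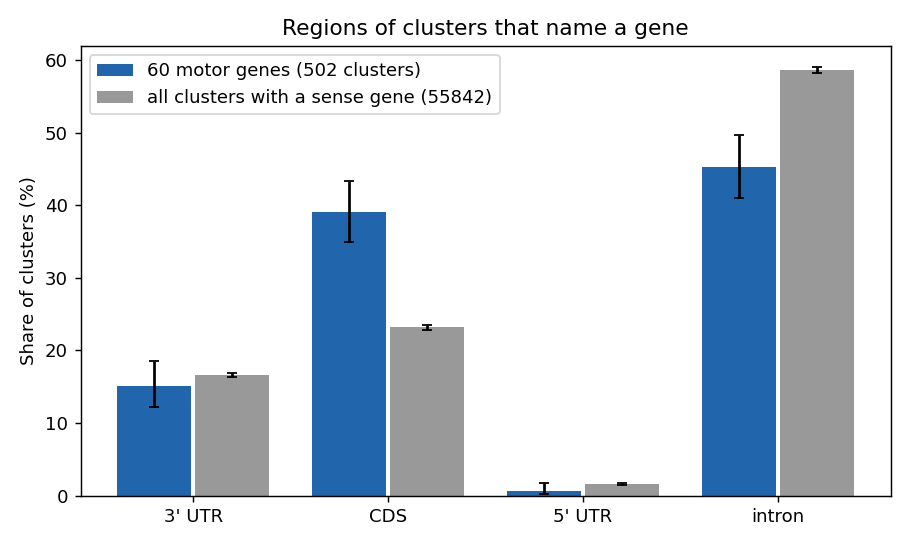
Share of clusters (percent, from 0) in each region for the 60 motor genes (502 clusters) and for all clusters with a gene on their strand (55842), with 95% Wilson intervals as error bars. CDS holds 39.0% of motor clusters and 23.2% of all clusters, and the 3' UTR shares of 15.1% and 16.6% overlap.

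Motor genes also have long coding sequences, with a median of 3.34 kb, against 1.60 kb over all genes with an exonic cluster. Per kb of CDS the motor genes had 0.964 clusters, against 0.781 in all genes with an exonic cluster. Per kb of 3' UTR they had 0.872 clusters, against 0.571 in all genes, and per 100 kb of intron 4.49 against 5.04. The share of clusters in CDS was thus 39.0% against 23.2%, while clusters per kb of CDS differed less, and the median 3' UTR of motor genes was shorter, 1.27 kb against 1.54 kb. Of the 196 CDS clusters, 160 also name an intron of the same gene, 81.6% against 69.6% of all CDS clusters. The intron shares above leave such clusters out, so the lower intron share of motor genes depends on the precedence used. With every overlap counted, 78.5% of motor clusters name an intron, and no such share was taken over all genes.

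Within each region the motor clusters had no single place. The CDS clusters fell 50, 43, 55 and 48 in 4 equal parts of the coding sequence, from the start codon on. The 71 3' UTR clusters that could be placed on a GENCODE 3' UTR fell 22, 13, 22 and 14 in 4 equal parts of it, and 22 were centred within 500 bases of the stop codon and 12 within 500 bases of the 3' end. Genes with several 3' UTR clusters differed from one another. Kif1b had clusters from the stop codon to near the end of its 3' UTR of 4.45 kb (4.449), with 208 reads in 1 of them, and Myo5a and Myo9a had none in the part nearest the stop codon.

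**Figure D4:**
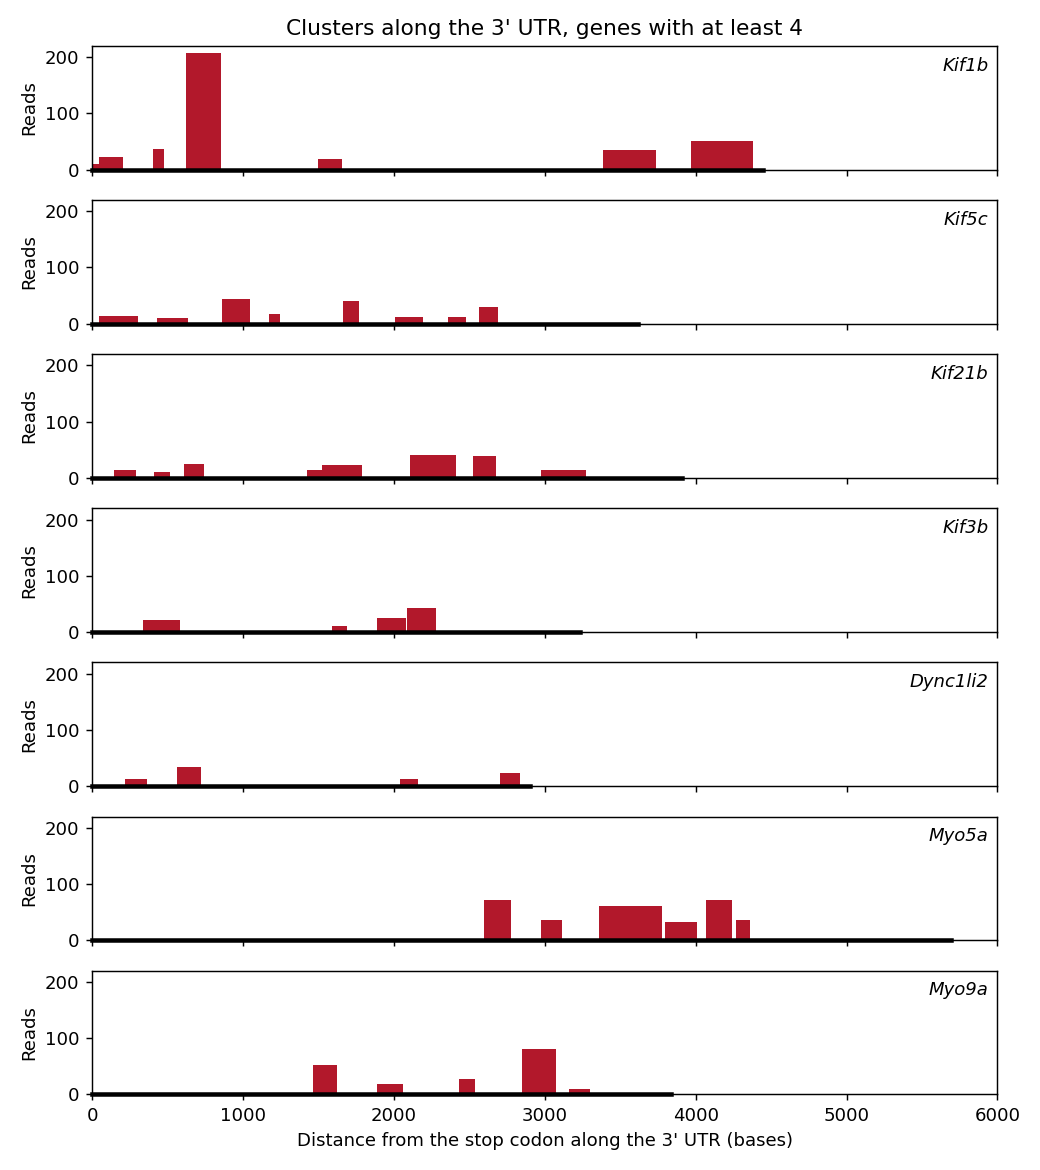
Position of each 3' UTR cluster (horizontal axis, bases past the stop codon) and its pooled reads (height) in the 7 motor genes with at least 4 placed 3' UTR clusters; the black line is the length of the 3' UTR. Kif1b has 1 cluster of 208 reads, Kif5c and Kif21b have 8 shallow clusters each, and the nearest of Myo5a to the stop codon is centred 2688 bases past it.

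Intron reads of the motor genes were dominated by 1 cluster. In Kifc2, a minus-end-directed kinesin of neurons, a cluster of 4720 reads lay at chr15:76661902-76661910 on the plus strand, in an intron of 73 bases, starting 30 bases past the last base of one exon and ending 36 before the first base of the next. It was 9 bases wide, ranked 9 of all 70142 clusters by reads, and held 26.3% of all motor reads and 49.6% of the motor intron reads. The table has 15 clusters of 20 bases or less, and the next deepest of them held 71 reads. The Kifc2 cluster had no match to the 16 microRNA families described below, but 9 bases leave little room for a seed match. Whether it is Argonaute-bound Kifc2 RNA was not tested. With it, introns held 53.1% of motor reads, CDS 32.6% and the 3' UTR 13.4%. Without it, introns held 36.4%, CDS 44.3% and the 3' UTR 18.2%, and over all genes these shares were 51.0%, 27.5% and 19.9%.

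The other intron clusters were shallow. The next deepest held 113 reads in Kif21a, and the median of all 227 was 17 reads, against 18 over all intron clusters. Kif1a had 18 intron clusters, Kif5c 17, Myh10 16, Dync1i1 14 and Myo5a 12. Per length of intron, Kif1a had 23.3 clusters per 100 kb, Myh10 14.0 and Dync1i1 4.68. Thus the 14 clusters of Dync1i1 were spread over introns of 299 kb (298.829). Of the 227, 13 touched an exon of some GENCODE transcript and 123 lay more than 1000 bases from one. Intron clusters alone were found in 11 members: Kif26b, Kif9, Kif11, Kif23, Dctn3, Dctn6, Myo16, Myo5c, Myo15, Myo7b and Myo3b.

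Circular RNA identifiers, which the table attaches to clusters that overlap a listed circular RNA, were present on 86 of the 502 motor clusters, 17.1% (14.1 to 20.7), against 15.9% of all clusters with a gene on their strand. In CDS the share was 23.0% in motor genes, against 26.7% in all genes. In the 3' UTR it was 2.63%, against 4.47%. Among the 23 members with one, Kif1b had 13 such clusters, Kif21a and Kif5c 10 each, Kif1a 8, Myo9a 7 and Klc1 5. A read in such a cluster cannot be assigned to the linear or the circular RNA.

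Seed matches were counted for 16 microRNA families known from brain, from the table's own columns, which hold the number of 6-base matches to microRNA bases 2 to 7 in each cluster. In the 14.0 kb of motor 3' UTR clusters, miR-128 had 13 matches (letters ACTGTG), 0.926 per kb (exact 95% Poisson interval 0.493 to 1.58), against 0.899 per kb in all 3' UTR clusters. For miR-125 (TCAGGG) there were 12, 0.854 per kb (0.442 to 1.49), against 0.450. For miR-7 (TCTTCC) there were 11, 0.783 per kb (0.391 to 1.40), against 0.50. For miR-138 (ACCAGC) there were 9, 0.641 per kb (0.293 to 1.22), against 0.326. The rate in motor clusters was above that of all 3' UTR clusters in 11 of the 16 families, and the motor interval held the value of all clusters in 16 of 16. At least 1 of the 16 families matched 57 of the 76 motor 3' UTR clusters, 75%, against 68.2% of all 3' UTR clusters. These shares take no account of cluster width, and a wider cluster has more room for a match. The matches of miR-128 and of miR-27 (CTGTGA) overlap in their letters, so 1 stretch can count for both.

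The same 27 motor 3' UTRs outside their clusters give a comparison within the same genes, for the 15 families with a mature sequence. Matches that overlapped a cluster by any base counted as inside. The rate inside clusters was above that outside in 14 of 15 families, the exception being miR-30 with 0.285 against 0.355 per kb. The interval of the inside rate lay wholly above the outside rate in 4. These were miR-128, with 0.926 inside and 0.375 outside, miR-125, with 0.854 and 0.336, miR-138, with 0.641 and 0.118, and miR-9, with 0.570 and 0.197. In the 71 clusters placed in a GENCODE 3' UTR, which leave out 5 of Klc2, the inside rate was above that outside in 13 of 15 families. The exceptions were then miR-29 and miR-30, each with 0.304 inside, against 0.375 outside for miR-29. The interval of the inside rate lay wholly above the outside rate in 5 families, the same 4 and miR-7, and the rate of miR-125 was 0.759. These comparisons take the outside rate as exact. It rests on 6 matches for miR-138, 10 for miR-9, 17 for miR-125, 19 for miR-128 and 20 for miR-7. No allowance was made for its counting error or for the 15 families examined.

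**Figure D5:**
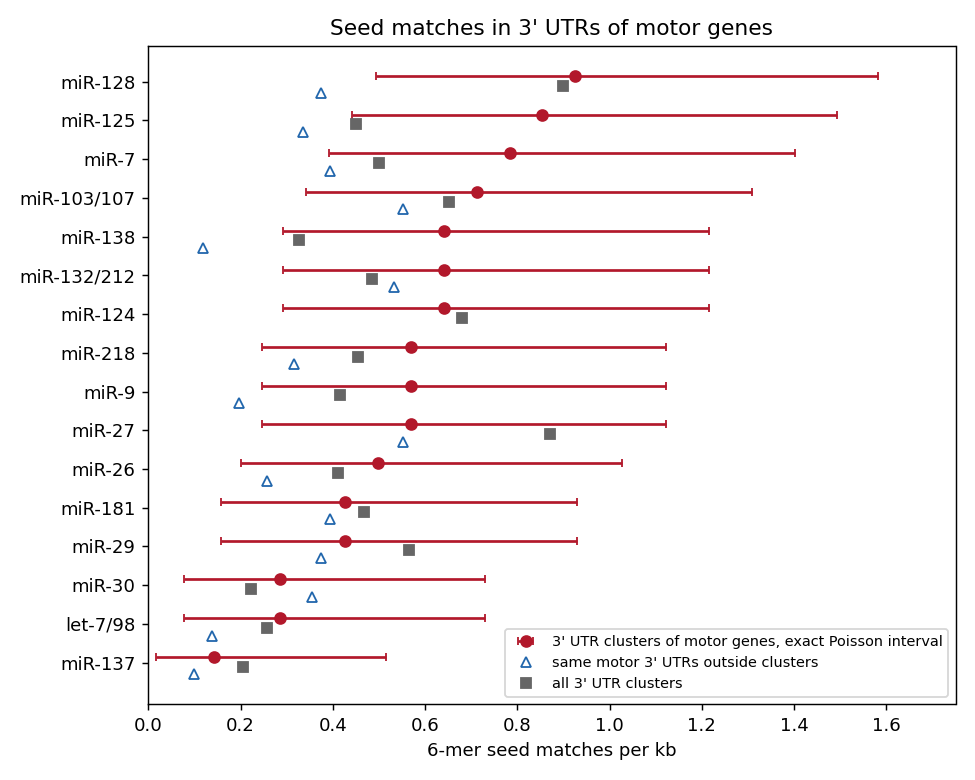
Seed matches per kb for 16 microRNA families: in 3' UTR clusters of motor genes (circles, exact 95% Poisson intervals), in the same 3' UTRs outside clusters (triangles, not given for miR-124) and in all 3' UTR clusters (squares). The square lies inside the motor interval in every family shown, and the triangle lies below the interval for miR-128, miR-125, miR-138 and miR-9.

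The matches were spread over many motors. The 13 matches of miR-128 fell in 10 genes, with 3 in Kif1b and 2 in Kif5b. Those of miR-125 fell in 7 genes, with 3 each in Dync1li2 and Klc2. Of the 3 in Klc2, 2 lay in its cluster of 46 reads outside GENCODE's 3' UTR, as did the Klc2 match of miR-132. The 9 matches of miR-132 and miR-212 (ACTGTT) fell in 9 genes, Kif1a, Kif1b, Kif5a, Kif5c, Kif21a, Kifc3, Klc2, Dync1li2 and Myo9a. For miR-138, Kif1b and Myo5a had 2 each, and for miR-7, Kif21b, Klc2 and Myo5a had 2 each. Kif3b and Kif5a had 2 matches each of miR-103 (and miR-107, which shares its seed), and Myo10 and Myo5a 2 each of miR-124. Of the 108 matches that could be placed in a 3' UTR cluster, 56 were 6mer, 19 7mer-A1, 23 7mer-m8 and 10 8mer sites, and 36 lay within 25 bases of the cluster's centre. How many would lie there if matches were spread evenly over the clusters was not computed, so this count does not show centring.

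In CDS, where microRNA sites are usually weaker than in the 3' UTR, fewer of the motor clusters held a match. At least 1 family matched 103 of the 196 motor CDS clusters, 52.6%, against 60.6% of all CDS clusters. The motor interval held the all-CDS value in 15 of 16 families. The exception was miR-125, with 19 matches in 13 genes, 0.633 per kb (0.381 to 0.989), against 0.378 in all CDS clusters. With 16 families examined, that lower bound is close to the value of all clusters.

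Genes that work with the motors but lie outside the symbol pattern were read from a list of 36 adaptors and regulators, drawn up with results of these data known. Of the 35 that GENCODE annotates, 29 had an exonic cluster, where 35.7% of all protein-coding genes did. Among the kinesin adaptors, 8 of 9 did, led by Mapk8ip3, a scaffold that links cargo to kinesin-1 and dynein, with 264 exonic reads, and Kifap3, the third subunit of kinesin-2, with 238. The ninth, Kifbp, is the newer symbol of Kif1bp, which the table uses. Among the dynein and dynactin partners, 17 of 20 did, led by Pafah1b1 (Lis1), a dynein regulator, with 315 reads, and Dynll2, a dynein light chain, with 7 exonic clusters. Among the myosin partners, 4 of 7 did, led by Myl12b, a regulatory light chain, with 2 exonic clusters, and Myrip, which links Rab27 vesicles to myosins, with 77.

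Markers of the labelled cell type and of other cells were read from the same table, in lists drawn up after the table was seen. All 6 neuronal markers had exonic clusters, with 88 to 618 exonic reads, including 618 for Camk2a and 88 for Slc17a7. All 6 astrocyte markers had them too, with 58 to 1105 reads (Slc1a2 highest, Gfap 80), as did 5 of 6 oligodendrocyte markers with up to 298 (Mbp), Mog having none. Of 6 microglial markers 3 had them, with at most 33 reads, and Aif1, P2ry12 and Tmem119 had none. The part of RNA from these other cells in the motor values was not tested, since no column separates the libraries.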

How the data were processed

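Per the labels' protocols, tissue was irradiated 3 times with 400 mJ/cm2 and libraries had 15 PCR cycles. BWA and the build mm10 are named per the submitters' processing notes, while no source says how clusters were called, which libraries were pooled, or how controls and PCR duplicates were treated. Per the file headers, each cluster has 1 deposited read count for the whole study, unnormalized, with 10 as the lowest. There are 0 columns of single libraries, so the depth of a library is unknown and the edgeR comparison of Flag-Ago2 with control libraries that had been planned could not be run. All values are descriptions, without p-values.

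Each cluster got 1 region per gene, from the table's own gene columns, a 3' UTR taking precedence over CDS, CDS over 5' UTR and 5' UTR over intron. Exonic reads sum all but the intron clusters, and so include clusters that also name an intron. Lengths, exon numbers and site sequences came from GENCODE M21, where 9806 of the 9962 genes matched by symbol, and coordinates are 1-based. Reads had no molecular identifiers, so the 95% Wilson (shares) and exact Poisson (rates) intervals, and the exact interval of a ratio of 2 counts, cover counting error only. Seed counts, deposited per cluster as numbers of matches, equalled a recount in 107 of 107 exonic motor clusters lying wholly inside exons, for 15 families with a mature sequence in the RefSeq table.

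Named genes are the 4 members of each class highest in exonic reads, the 10 clusters of most reads, the 5 members with most 3' UTR and intron clusters, the 2 with most seed matches of a described family (more where tied) and the 2 associated genes of each motor with most exonic reads. Members named beyond that complete a class or list, 1 member is counted in all totals but not reported here by itself, and the printed sites of Myo6, Kif21b and Kif16b were chosen for being 8mer sites after their values were seen. The members and lists were chosen with earlier results of these data known. Scripts were tested on simulated tables and run with Python 3.11.15, pandas 2.3.3, numpy 2.4.6, scipy 1.17.1 and matplotlib 3.10.9.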

Additional observations from a re-analysis of the deposited data

Results flagged for a closer look

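Clusters that name a motor gene only on the opposite strand were outside every comparison above. There were 29 of them with 865 reads, opposite 21 genes of which 9 had no cluster on their own strand. That is 5.78 such clusters per 100 clusters on the gene's own strand, against 3.93 per 100 over all genes. The deepest, opposite Myo3b at chr2:70057266-70057411 on the minus strand, held 386 reads, and the next, opposite Myo16, held 40. Myo3b itself had 1 intron cluster of 15 reads. There is no control value for these clusters.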

How the results depend on the processing

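No paired analysis was possible because the table has no columns of single libraries, and for the same reason leaving out replicates and another normalization could not be run. With clusters of at least 50 reads, the motor clusters lay 20% in 3' UTR, 60% in CDS, 2% in 5' UTR and 18% in introns, with 3139 exonic reads, 22 motor genes with an exonic cluster and 6 with a 3' UTR cluster. With at least 20 reads, CDS held 44.3% and introns 37.4%. With every overlap counted, introns held 78.5% and the 5' UTR 1.79%, by construction, since a cluster then counts in each region it names. The same shares were not taken over all genes. Without the deepest exonic cluster of each gene, the median fell to 7.97 exonic reads per kb, fewer clusters being counted (2.94 over all genes). The alternative without the Kifc2 intron cluster, given with the intron clusters above (reads 18.2% 3' UTR, 44.3% CDS, 36.4% intron), the one that ranks CDS before 3' UTR and the one that counts seeds in placed 3' UTR clusters were chosen after seeing the data. Of 95 alternative values, 80 moved by less than the counting interval or 1.5 times, among them all 64 of the microRNA families. The family rates rest on 2 to 13 matches with wide intervals, and their alternatives are subsets of the same clusters. That check could therefore hardly show a move. For miR-9, counted as unmoved, the rate went from 0.570 to 0.341 per kb with clusters of at least 20 reads. Depth limits what can be seen below 10 reads per cluster, and 10 members rest on a single exonic cluster.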
